A study of Mus musculus with 28 samples.

Results

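NF-κB is a family of 5 DNA-binding subunits that is held in the cytoplasm by inhibitors until a signal releases it, and it drives its own inhibitors. The genes described here are 10 members of this system, found by their symbols in the TPM table, which holds 55450 genes. They are the subunits Nfkb1 (p105, the precursor of p50), Nfkb2 (p100, the precursor of p52), Rel (c-Rel), Rela (p65) and Relb, the cytoplasmic inhibitors Nfkbia (IκBα) and Nfkbie (IκBε), the nuclear IκB proteins Nfkbiz (IκBζ) and Bcl3, and Tnfaip3 (A20), a ubiquitin-editing enzyme that shuts the upstream signal off. They were measured in C10 cells, a mouse Pre-B line derived from HAFTL cells, in which a C/EBPαER transgene (rat C/EBPα joined to the hormone-binding part of the estrogen receptor) turns the cells into macrophages. The 0h cells carried the transgene and were uninduced, and the other groups had been treated with 100 nM β-estradiol together with 10 nM IL-3 and CSF-1 for 1h, 12h or 48h. RNA-seq had 3 biological replicates at each of the 4 time points, 12 libraries in all, and Promoter Capture Hi-C gave 1 list of promoter contacts per time point from 2 merged replicates. As 1 transgenic line received all agents at once, the parts of C/EBPαER, of the cytokines and of time in culture cannot be told apart. Cells were lysed in bulk, so fewer cells of a type and less RNA per cell cannot be told apart either.

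In resting cells IκB proteins mask RelA and c-Rel dimers, and the kinase complex IKK marks them for destruction when receptors of the TNF, Toll-like or B cell antigen type are engaged. The freed dimers activate inflammatory and survival genes as well as Nfkbia, Nfkbie, Nfkb2 and Tnfaip3, which closes a negative feedback loop. In B cells c-Rel and p50 support survival and proliferation, whereas in macrophages RelA and the nuclear protein IκBζ take part in the induction of cytokine genes. RelB with p52 forms the non-canonical arm, which starts from NIK.

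In GRCm38 (GENCODE M21), the subunit genes are Nfkb1 on chromosome 3 (135584655 to 135691547, minus strand), Nfkb2 on chromosome 19 (46304320 to 46312385, plus), Rel on chromosome 11 (23736847 to 23770970, minus), Rela on chromosome 19 (5637483 to 5648130, plus) and Relb on chromosome 7 (19606217 to 19629438, minus). The inhibitors are Nfkbia on chromosome 12 (55489410 to 55492647, minus), Nfkbie on chromosome 17 (45555703 to 45563169, plus), Nfkbiz on chromosome 16 (55811375 to 55838899, minus), Bcl3 on chromosome 7 (19808462 to 19822770, minus) and Tnfaip3 on chromosome 10 (19000910 to 19015657, minus). Their promoters are shown first because several of these genes are regulated by the factors they encode. RefSeq promoter windows (GRCm38.p6, 250 bases before to 50 after the start site) were at hand for Nfkb2, Rel, Rela, Nfkbia, Nfkbie, Bcl3 and Tnfaip3. Nfkb1, Relb and Nfkbiz had none in the table used. A 10-base κB motif, searched on both strands, was found in at least 1 window of 6 of these 7 genes, and Rela had no match. The motif was held by 4.51% of the 32851 promoter windows in the table. That share is per window, whereas the count above is per gene. Nfkb2 had 3 windows, of which 2 overlap and share a match, and Tnfaip3 had 2. The C/EBP motif TTGCNNAA, held by 10.8% of the windows, was not found in any window of the members. These matches are letters in a sequence, and the lists used here do not show what binds there. The windows of Tnfaip3, the member with the largest change at 48h, follow with the κB matches in capitals. Nfkbia, Nfkb2 and Rel were added after their values were seen, since Nfkbia and Nfkb2 had their highest TPM at 12h and Rel at 1h.
Tnfaip3, upstream start, chr10:19015361-19015660, minus strand: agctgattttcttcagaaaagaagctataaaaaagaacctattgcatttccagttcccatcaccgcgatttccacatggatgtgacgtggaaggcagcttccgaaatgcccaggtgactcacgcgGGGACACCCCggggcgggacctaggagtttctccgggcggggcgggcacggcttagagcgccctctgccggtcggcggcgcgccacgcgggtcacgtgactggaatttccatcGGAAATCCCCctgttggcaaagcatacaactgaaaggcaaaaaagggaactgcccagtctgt
Tnfaip3, internal start, chr10:19011914-19012213, minus strand: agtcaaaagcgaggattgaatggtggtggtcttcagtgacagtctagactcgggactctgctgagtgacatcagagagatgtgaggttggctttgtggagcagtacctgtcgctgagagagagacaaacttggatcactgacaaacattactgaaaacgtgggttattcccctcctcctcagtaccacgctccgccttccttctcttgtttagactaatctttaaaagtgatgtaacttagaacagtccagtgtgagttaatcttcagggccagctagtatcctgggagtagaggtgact
Nfkbia, chr12:55492598-55492897, minus strand: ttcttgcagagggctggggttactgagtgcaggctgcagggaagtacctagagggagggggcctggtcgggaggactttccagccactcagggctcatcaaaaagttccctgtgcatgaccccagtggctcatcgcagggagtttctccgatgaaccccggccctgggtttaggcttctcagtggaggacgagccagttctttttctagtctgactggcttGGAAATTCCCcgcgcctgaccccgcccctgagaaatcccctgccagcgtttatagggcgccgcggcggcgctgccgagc
Nfkb2, first of 3 windows, chr19:46304487-46304786, plus strand: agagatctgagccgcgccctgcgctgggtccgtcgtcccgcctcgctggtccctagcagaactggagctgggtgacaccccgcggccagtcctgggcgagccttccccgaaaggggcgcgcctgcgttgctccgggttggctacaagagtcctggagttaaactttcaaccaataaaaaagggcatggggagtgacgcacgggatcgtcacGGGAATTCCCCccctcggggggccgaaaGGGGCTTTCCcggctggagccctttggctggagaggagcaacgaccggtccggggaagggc
Rel, chr11:23770920-23771219, minus strand: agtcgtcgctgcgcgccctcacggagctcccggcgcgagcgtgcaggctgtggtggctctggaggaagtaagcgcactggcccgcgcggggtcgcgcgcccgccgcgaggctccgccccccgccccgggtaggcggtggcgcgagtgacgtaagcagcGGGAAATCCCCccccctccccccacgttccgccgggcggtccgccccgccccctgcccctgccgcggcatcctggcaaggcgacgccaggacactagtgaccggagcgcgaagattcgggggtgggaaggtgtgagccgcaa
In the upstream window of Tnfaip3 the matches began 125 and 12 bases before the start site, read in the direction of the gene, and the internal window had no match. The Nfkbia match began 29 bases before its start site. In Nfkb2 the first window held an overlapping pair that began 39 and 38 bases before the start and a further match 11 bases before it. In Rel an overlapping pair began 92 and 91 bases before the start.

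The library scale matters for every value below. From 70.3% to 82.9% of a library's TPM went to a pair of ribosomal RNA genes, and the space left for other genes differed between time points. Against 0h, the log2 fold changes of the 16415 genes tested had medians of 0.59 (1h), 0.34 (12h) and -0.18 (48h) on deposited TPM and of 0.02, 0.07 and 0.07 once libraries were brought to a common scale by median-of-ratios. Each change is given on both scales, called "TPM" and "scaled", and the scaled value is the one relative to most other genes. Summed markers of Pre-B cells (10 genes) went from between 296 and 338 TPM at 0h to between 26.9 and 38.4 TPM at 48h, and those of macrophages (9 genes) from between 8.84 and 12.2 TPM to between 221 and 301 TPM. Adgre1, Msr1 and Cd14 were at 0 in all 0h libraries and Rag1 in all 48h libraries. At 48h Adgre1 was still at 0 in replicates 1 and 2, with 0.29 TPM in replicate 3. The largest part of the macrophage sum at 48h was Lyz2 (94.7 to 122 TPM). Markers of T cells, fibroblasts and erythroid cells summed to at most 0.93 TPM in any library, and those of granulocytes to at most 3.45 TPM. TPM carry no depth, and the read totals that the study lists were not used here, so no counting error is given for low values. The replicate 3 libraries had the lowest mitochondrial share of their time point (5.87% to 8.45% of the TPM outside the ribosomal pair, beside 8.65% to 22.0% in the other libraries).

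Of the 10 members, 9 passed the filter, a mean of 0.1 TPM or more across all libraries, and each of these 9 was also above it in the 0h libraries alone. Bcl3 was listed at 0 in 11 libraries and at 0.04 TPM in 1 library of 48h, and was not tested. Tested with limma at an adjusted p under 0.05, 5 of 9 members were higher at 1h than at 0h on TPM, where 24.1% of all genes were higher, and 1 of 9 on the scaled values, where 5.42% were. At 12h, 5 of 9 were higher on TPM (22.3% of all genes) and 4 of 9 on the scaled values (16.0%). Nfkb1 was the 1 member lower at 12h on the scaled values, where 14.5% of all genes were lower. At 48h, 4 of 9 were higher on TPM (15.9% of all genes) and 6 of 9 on the scaled values (24.5%), and Nfkb1 was lower on both (27.2% and 22.0%). From 1h to 12h, 3 of 9 rose on TPM (6.98% of all genes) and 3 of 9 scaled (11.3%), and Rel fell on both (15.0% and 8.77%). From 12h to 48h, 1 of 9 rose (4.10%) and 3 of 9 fell (31.7%) on TPM, whereas 3 of 9 rose on the scaled values (10.5%). The 3 comparisons share the 0h libraries. Without replicate 3 of every time point, which leaves 2 libraries per group, 2 members were called at 1h on TPM in place of 5, 5 at 12h and 4 at 48h. Over all omissions of libraries the count was between 1 and 5 at 1h, 3 and 5 at 12h and 3 and 6 at 48h. The lower count at 1h was thus not particular to replicate 3. Calls that held on both scales were Nfkbiz at 1h, the 4 genes Nfkb2, Nfkbia, Nfkbiz and Tnfaip3 at 12h, and Rel, Nfkbie, Nfkbiz, Tnfaip3 and Nfkb1 at 48h.

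**Figure D1:**
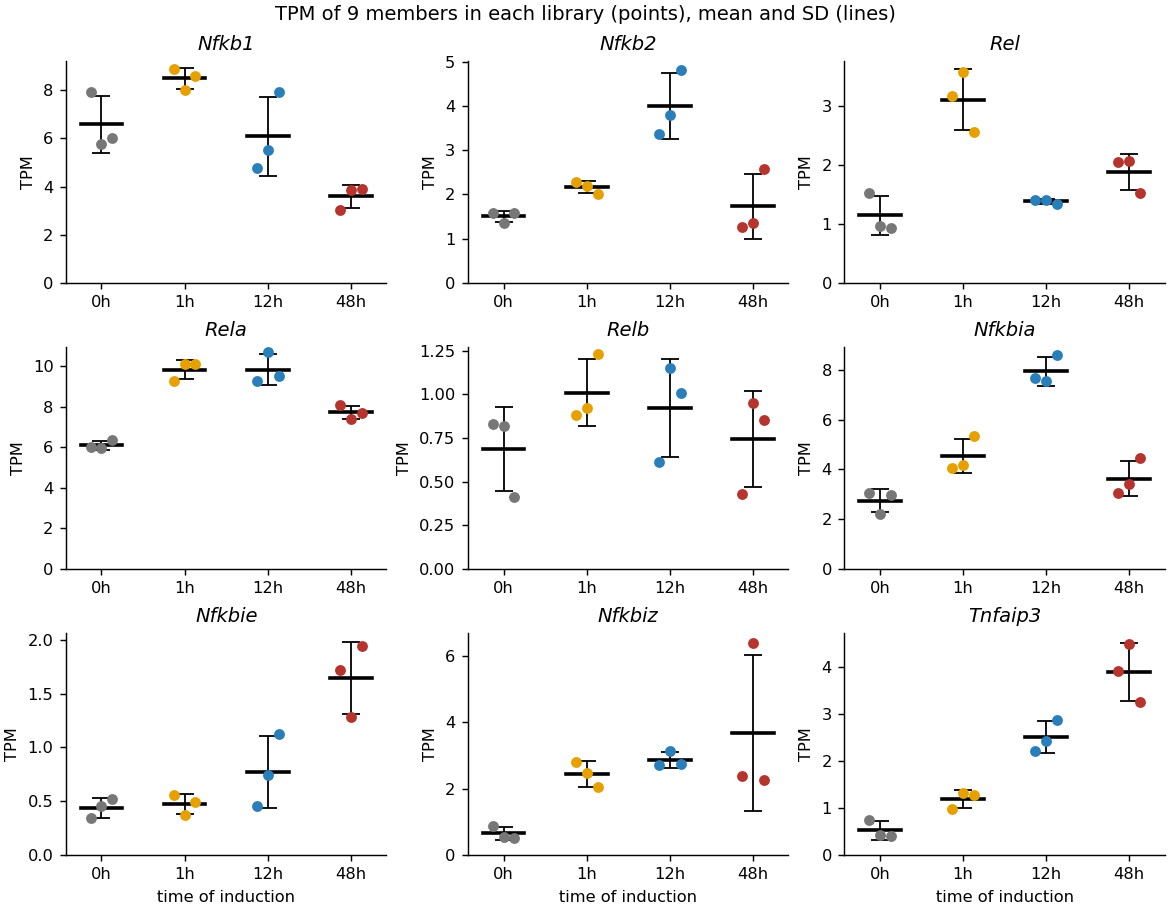
TPM in each of the 12 libraries for 9 members (points, 3 per time point), with the mean and SD (lines), each panel on its own axis from 0. On this scale Rel was highest at 1h, Nfkb2 and Nfkbia at 12h, and Nfkbie and Tnfaip3 at 48h (after scaling, Rel was highest at 48h), while Nfkbiz at 48h had 1 library at 6.40 TPM beside 2.37 and 2.27.

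Rel, the c-Rel subunit of B cells, was high at 1h and low again at 12h. Its TPM were 1.52, 0.97 and 0.93 at 0h, 3.17, 3.58 and 2.56 at 1h, 1.40, 1.41 and 1.33 at 12h, and 2.04, 2.07 and 1.52 at 48h. On TPM the 3 libraries of 1h lay above all others, whereas the scaled values were highest at 48h (3.25, 2.89 and 2.02, beside 2.03, 2.34 and 1.93 at 1h). On TPM, Rel rose by a log2 fold change of 1.39 ± 0.23 (SE, n = 3 per group) from 0h to 1h, with an adjusted p of 0.00202. On the scaled values the difference was 0.76 with an adjusted p of 0.0517, just outside the threshold, and it passed without 0h replicate 1, 48h replicate 1 or 48h replicate 3 (adjusted p down to 0.0268). From 1h to 12h Rel fell by 1.10 on the log2 scale (adjusted p = 0.00606) on TPM and by 0.78 (adjusted p = 0.0276) on the scaled values. At 48h it was above 0h again, by 0.69 (adjusted p = 0.0316) on TPM and 1.09 (adjusted p = 0.00169) on the scaled values. The TPM call at 48h was lost without any 1 of 4 libraries (0h replicates 2 and 3, 48h replicates 1 and 2; adjusted p up to 0.102), and the scaled call from 1h to 12h without any 1 of 5 (the 3 of 1h and 12h replicates 2 and 3; adjusted p up to 0.096).

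Rela and Nfkb1, which encode p65 and the p50 precursor of the classical dimer, had the highest TPM at 0h and then moved apart. Rela was at 5.98, 5.93 and 6.34 TPM at 0h, 9.27, 10.1 and 10.1 at 1h, 9.27, 10.7 and 9.51 at 12h, and 8.06, 7.39 and 7.68 at 48h. All later libraries were above those of 0h on TPM, whereas those of 1h and 12h overlapped with 0h on the scaled values. Its calls depended on the scale: on TPM it rose at 1h (0.68 ± 0.13, SE, adjusted p = 0.00472) and at 12h (0.68, adjusted p = 0.0029) and was 0.34 higher at 48h (adjusted p = 0.0637), whereas the scaled differences were 0.03 at 1h, 0.35 at 12h (adjusted p = 0.145) and 0.74 at 48h (adjusted p = 0.00354).

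Nfkb1 was at 7.95, 5.76 and 6.04 TPM at 0h, 8.87, 8.03 and 8.59 at 1h, 4.78, 5.54 and 7.93 at 12h, and 3.02, 3.85 and 3.9 at 48h. The 48h libraries were the lowest on TPM, while on the scaled values those of 12h (4.48, 4.98 and 5.86) and 48h (4.81, 5.37 and 5.19) overlapped. The scaled 1h libraries (5.69, 5.25 and 6.48) overlapped with those of 0h, 12h and 48h. Nfkb1 fell by 0.85 ± 0.21 (SE) on the log2 scale from 0h to 48h on TPM, with an adjusted p of 0.00663, and by 0.45 ± 0.15 (SE) on the scaled values, with an adjusted p of 0.0258. The scaled call at 48h was lost without 0h replicate 1, 0h replicate 3 or 48h replicate 1 (adjusted p up to 0.0833). Its scaled fall of 0.46 at 12h (adjusted p = 0.0341) was lost without any 1 of 4 libraries, which were 0h replicates 1 and 3 and 12h replicates 1 and 2 (adjusted p up to 0.113). Nfkb1 overlaps Gm43430 on the same strand, a gene with a mean of 0.20 TPM.

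Nfkb2, the p100 gene of the non-canonical arm, was highest at 12h. Its TPM were 1.58, 1.36 and 1.58 at 0h, 2.29, 2.20 and 2.01 at 1h, 3.37, 3.8 and 4.83 at 12h, and 1.26, 1.35 and 2.58 at 48h. On TPM the 12h libraries stood above all others. After scaling, replicate 3 of 48h (3.43) stood among those of 12h (3.16, 3.41 and 3.57). Nfkb2 rose by 1.34 ± 0.26 (SE) from 0h to 12h on TPM (adjusted p = 0.00264) and by 1.01 ± 0.22 (SE) on the scaled values (adjusted p = 0.00463), and leaving out any single library kept both calls. From 12h to 48h it fell by 1.22 on the log2 scale on TPM (adjusted p = 0.00365), and the scaled difference was -0.50 (adjusted p = 0.129). The latter passed at an adjusted p of 0.00646 without 48h replicate 3. The gene overlaps Psd and AC114539.1 on the other strand, which had means of 0.65 and 0.38 TPM. The library kit did not mark strand, so their reads could not be told apart where the genes overlap.

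Relb, the partner of p52, had low values at all times: 0.83, 0.82 and 0.41 TPM at 0h, 0.88, 0.92 and 1.23 at 1h, 0.61, 1.15 and 1.01 at 12h, and 0.43, 0.95 and 0.85 at 48h. The 48h libraries overlapped those of 0h. In limma 0 of 5 comparisons passed on either scale, and 0 of 5 had an unadjusted p under 0.05. The difference of 48h from 0h was 0.09 ± 0.36 (SE) on TPM and 0.46 ± 0.33 (SE) on the scaled values.

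Shares within a library do not depend on the scale between libraries. Of the summed TPM of the 5 subunits, Nfkb1 took 40.9% ± 3.12 (SD, n = 3) before induction and 34.6% ± 2.00, 27.1% ± 4.42 and 22.9% ± 2.22 after 1h, 12h and 48h. The highest 48h library (24.7%) lay below the lowest 0h library (38.8%). Rela went from 38.3% ± 4.23 to 49.4% ± 4.37 at 48h, again without overlap. Rel took 7.04% ± 1.29 before induction and 12.6% ± 2.00, 6.28% ± 0.90 and 12.1% ± 2.51 at the later times in turn. Nfkb2 took 9.45% ± 0.78 at 0h and 17.9% ± 1.49 at 12h, while Relb stayed between 2.68% and 6.09% in all 12 libraries. The Nfkb1 share was thus lowest when that of Rela was highest, a description for which no test was run. As parts of the same sum the shares are tied, and a fall of the Nfkb1 share by itself raises the others.

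**Figure D2:**
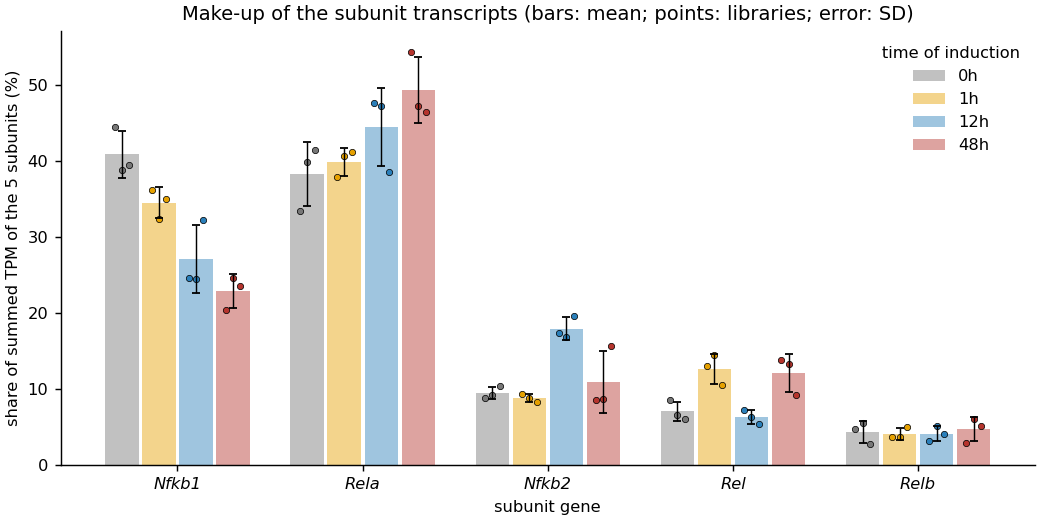
Share of each subunit gene in the summed TPM of Nfkb1, Rela, Nfkb2, Rel and Relb, in percent, by time point (bars: mean of 3 libraries; points: libraries; error bars: SD). Nfkb1 declines from 40.9% to 22.9% of subunit transcripts as Rela goes from 38.3% to 49.4%, with Rel high at 1h and 48h and Nfkb2 at 12h.

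Nfkbia, the inhibitor IκBα and the best known feedback gene, was highest at 12h. Its TPM were 3.04, 2.20 and 2.97 at 0h, 4.07, 4.19 and 5.33 at 1h, 7.68, 7.55 and 8.6 at 12h, and 3.06, 3.39 and 4.44 at 48h. All 12h libraries were above those of the other times. It rose by 1.52 ± 0.20 (SE) from 0h to 12h on TPM (adjusted p = 0.000196) and by 1.18 ± 0.20 (SE) on the scaled values (adjusted p = 0.000998). At 1h the TPM value was 0.71 (adjusted p = 0.0252, lost without 0h replicate 2 or 1h replicate 3) and the scaled value 0.07. At 48h the gene was 0.39 above 0h on TPM (adjusted p = 0.143) and 0.80 on the scaled values (adjusted p = 0.0063). Per TPM of Rela, its main client, Nfkbia stood at 0.449 ± 0.071 (SD, n = 3) before induction and at 0.461 ± 0.060, 0.813 ± 0.10 and 0.472 ± 0.10 after 1h, 12h and 48h, and of these 4 groups only that of 12h lay apart from the others.

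Nfkbie, the related inhibitor IκBε, had a later pattern. It was at 0.34, 0.45 and 0.52 TPM at 0h, 0.56, 0.37 and 0.49 at 1h, 0.45, 0.74 and 1.12 at 12h, and 1.72, 1.28 and 1.94 at 48h. The 48h libraries were above all others. From 0h to 48h Nfkbie rose by 1.70 ± 0.32 (SE) on TPM (adjusted p = 0.00109) and by 2.1 ± 0.30 (SE) on the scaled values (adjusted p = 0.000162). It also rose from 12h to 48h, by 1.06 (adjusted p = 0.0231) and 1.76 (adjusted p = 0.00157), the former lost without any 1 of 4 libraries, which were 12h replicates 1 and 2 and 48h replicates 1 and 3 (adjusted p up to 0.0826). Per TPM of Nfkbia, Nfkbie stood at 0.164 ± 0.047 (SD, n = 3) before induction, 0.096 ± 0.036 after 12h and 0.459 ± 0.094 after 48h, and the 48h libraries lay above all others.

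Nfkbiz, the nuclear protein IκBζ that co-activates cytokine genes with p50, was the member with the largest difference at 1h. Its TPM were 0.87, 0.54 and 0.52 at 0h, 2.81, 2.47 and 2.04 at 1h, 2.72, 3.13 and 2.73 at 12h, and 2.37, 6.40 and 2.27 at 48h. Every induced library was above every 0h library, and replicate 2 of 48h stood far from the other two. The log2 fold change at 1h was 1.79 ± 0.36 (SE, adjusted p = 0.00485) on TPM and 1.17 ± 0.34 (SE, adjusted p = 0.0498) on the scaled values. The scaled call was lost without any 1 of 10 libraries, which were all of 0h, 1h and 12h and replicate 1 of 48h (adjusted p up to 0.144), so it lay at the edge of the threshold. At 12h Nfkbiz was higher by 2.02 (adjusted p = 0.00138) and 1.71 (adjusted p = 0.00283), and at 48h by 2.21 (adjusted p = 0.000349) and 2.62 (adjusted p = 6.78e-05), on TPM and scaled values in that order. Leaving out any single library, replicate 2 of 48h included, kept these calls at 12h and 48h.

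Tnfaip3, which encodes the A20 enzyme, was higher at 12h and 48h than at 0h on both scales. It was at 0.75, 0.42 and 0.39 TPM at 0h, 0.98, 1.32 and 1.28 at 1h, 2.21, 2.44 and 2.88 at 12h, and 3.93, 4.51 and 3.26 at 48h. No 2 time points overlapped on TPM, whereas on the scaled values 1h replicate 1 (0.629) lay below 0h replicate 1 (0.727). The log2 fold changes against 0h on TPM were 1.10 ± 0.25 (SE, adjusted p = 0.0104) at 1h, 2.11 (adjusted p = 9.59e-05) at 12h and 2.72 (adjusted p = 5.03e-06) at 48h, the last being 7.50 times the mean TPM of 0h. On the scaled values they were 0.51 (adjusted p = 0.201), 1.81 (adjusted p = 0.000168) and 3.15 (adjusted p = 8.46e-07). The rise from 12h to 48h passed on the scaled values (1.34, adjusted p = 0.00164) and was 0.61 on TPM (adjusted p = 0.0834). Per TPM of Nfkbia, Tnfaip3 had a mean of 0.190 ± 0.058 (SD, n = 3) before induction, 0.315 ± 0.025 after 12h and 1.12 ± 0.332 after 48h.

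**Figure D3:**
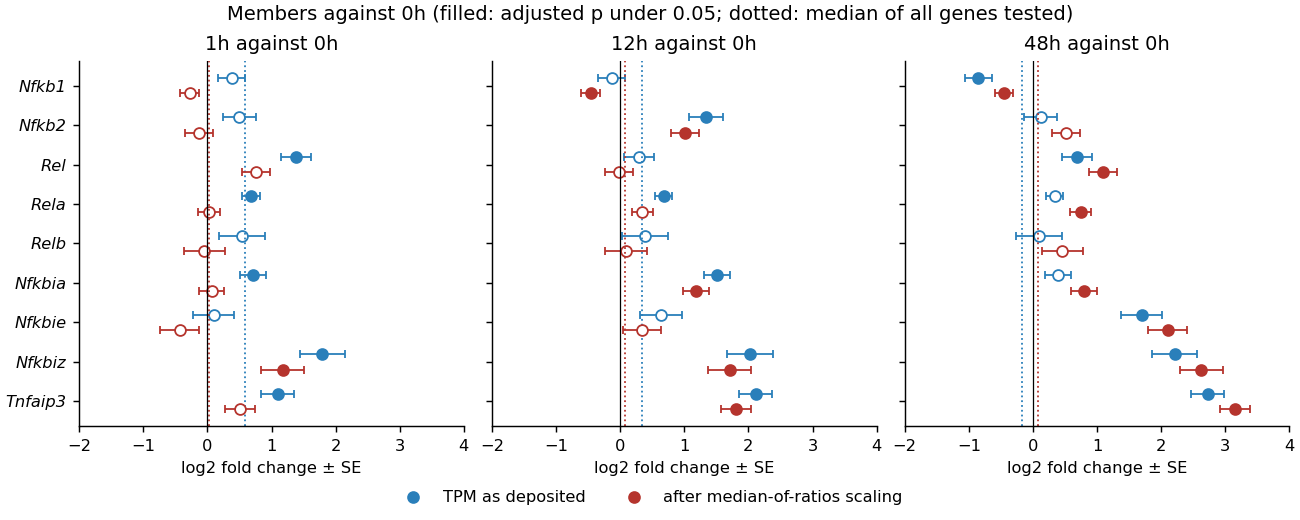
Log2 fold change (with SE) of 9 members at 1h, 12h and 48h against 0h, on TPM as deposited (blue) and after median-of-ratios scaling (red); filled points have an adjusted p under 0.05 and dotted lines mark the median of all genes tested. At 1h the blue median lies at 0.59 and Rela, Nfkbia and Relb sit close to it, whereas Nfkbiz and Rel lie above it on both scales.

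In order of mean TPM, which is a measure per transcript length and so can be set side by side between genes, 0h cells had Nfkb1 (6.58) and Rela (6.08) at the top, then Nfkbia (2.74), Nfkb2 (1.51), Rel (1.14), Relb (0.687), Nfkbiz (0.643), Tnfaip3 (0.520) and Nfkbie (0.437). Neighbours overlapped between libraries except at the steps from Rela to Nfkbia, from Nfkbia to Nfkb2 and from Rel to Relb. At 48h the order was Rela (7.71), Tnfaip3 (3.9), Nfkbiz (3.68), Nfkbia (3.63), Nfkb1 (3.59), Rel (1.88), Nfkb2 (1.73), Nfkbie (1.65) and Relb (0.743). Tnfaip3, Nfkbiz, Nfkbia and Nfkb1 overlapped with their neighbours in that order, as did Rel, Nfkb2 and Nfkbie. Tnfaip3 had thus moved from the third lowest mean of the 10 genes to the mean just below that of Rela.

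Over the 12 libraries, on scaled log2 values, Nfkb2 and Nfkbia were the most alike pair of members (Pearson r = 0.91), followed by Nfkbiz with Tnfaip3 (r = 0.91) and Rela with Tnfaip3 (r = 0.87). Nfkb1 had a negative r with each of the other 8 members tested, down to -0.71 with Nfkbiz. Among 9330 genes that averaged 1 TPM or more, those closest to Tnfaip3 were Ppt1 (r = 0.994), a lysosomal thioesterase, Sgpl1 (r = 0.988), which degrades sphingosine phosphate, H2-DMb2 (r = 0.987), which helps load MHC class II, Dock10 (r = 0.985) and Diaph2 (r = 0.985). Those closest to Nfkbiz were Grk4 (r = 0.965), Reep3 (r = 0.964), Gm48498 (r = 0.961), Gm17132 (r = 0.960) and Slc38a6 (r = 0.958). The 12 points are 4 time points of 3 libraries, so any gene with the same order of time points has a high r.

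The genes that carry the signal to NF-κB were taken from a list of 37, of which 35 were tested, with Traf1 and Tnip3 under the filter. On TPM, 12, 14 and 7 were higher after 1h, 12h and 48h, where 24.1%, 22.3% and 15.9% of all genes were. Lower on TPM were 1, 1 and 5, where 1.41%, 7.82% and 27.2% of all genes were. The TPM medians were 0.70, 0.58 and 0.24, beside 0.59, 0.34 and -0.18 over all genes. On the scaled values 2, 7 and 17 were higher (5.42%, 16.0% and 24.5% of all genes) and 1, 2 and 3 lower (4.92%, 14.5% and 22.0%). The scaled medians were 0.08, 0.25 and 0.63, beside 0.02, 0.07 and 0.07 over all genes, and the count of 2 at 1h is near the share of all genes. Ikbke, the kinase IKKε, was at 0.763 ± 0.353 TPM (SD, n = 3) at 0h, 12.4 ± 2.63 at 12h and 5.12 ± 0.548 at 48h, and rose at 12h by 3.91 on TPM (adjusted p = 5.29e-06) and 3.59 scaled (adjusted p = 1.91e-06). Birc3, the ubiquitin ligase cIAP2, rose at 1h (1.27 on TPM, adjusted p = 0.000953; 0.62 scaled, adjusted p = 0.0215) and at 48h (2.05 on TPM, adjusted p = 4.24e-06; 2.46 scaled, adjusted p = 1.63e-07). Traf3 and Tbk1 rose at 1h on TPM (1.32 and 1.22; adjusted p = 0.009 and 0.0108), and their scaled values of 0.68 and 0.57 did not pass.

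Nfkbid, a further nuclear IκB gene, had a mean of 1.58 ± 0.315 TPM (SD, n = 3) before induction, 6.23 ± 0.553 after 12h and 0.820 ± 0.183 after 48h. It rose at 12h (1.93 on TPM, 1.60 scaled) and was lower than at 0h by 48h (-0.87 on TPM, adjusted p = 0.0102; -0.50 scaled, adjusted p = 0.0371). Myd88, the adaptor of Toll-like receptors, rose at 12h (1.46 on TPM, 1.13 scaled). In the linear ubiquitin ligase, Rnf31 rose at 48h (1.28 on TPM, 1.69 scaled) while its partner Rbck1 fell (-1.34 on TPM, -0.94 scaled), from 13.5 ± 1.87 to 5.45 ± 1.92 TPM (SD, n = 3). Tab1 of the TAK1 complex fell at 48h on TPM (-1.35, adjusted p = 0.0182), and the scaled value was -1.01 (adjusted p = 0.0507).

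A list of 28 textbook NF-κB target genes, 23 of them tested, had larger medians than the signalling genes at 12h and 48h on both scales. Ccl5, Cxcl2, Vcam1, Cd83 and Csf2 were under the filter. On TPM, 7, 15 and 16 were higher after 1h, 12h and 48h (24.1%, 22.3% and 15.9% of all genes), and 1 was lower at 1h and 1 at 48h (1.41% and 27.2%). The TPM medians were 0.38, 1.39 and 2.32, that of 1h being below the 0.59 of all genes. On the scaled values 5, 14 and 18 were higher (5.42%, 16.0% and 24.5%) and 3, 1 and 1 lower (4.92%, 14.5% and 22.0%), with medians of 0.00, 1.07 and 2.72. The filter took the mean over all libraries, so targets near 0 at 0h passed through later values alone. Il1b, Il6, Ccl4, Cxcl10, Mmp9 and Fas were at 0 in every 0h library and could only rise. Ptgs2, Ier3, Cd40 and Nos2 had 0h means under 0.1 TPM. Both 48h medians are the value of Mmp9 (at most 1.02 TPM), and the scaled 1h median belongs to genes at 0 in both groups. Counts and medians are thus tilted towards a rise. Il1b, the gene of interleukin-1β, had values of 0 in every 0h library and of 1.38, 1.51 and 1.32 TPM after 1h. Its mean was 26.7 ± 6.59 TPM (SD, n = 3) after 12h and 33.6 ± 4.37 TPM after 48h. Ptgs2 (cyclooxygenase-2) was at 0.03 TPM or less at 0h and at 5.25 ± 0.916 at 12h and 6.35 ± 2.41 at 48h. Ccl3, a chemokine, had a mean of 1.60 ± 0.910 TPM before induction, 15.6 ± 2.01 after 1h and 62.1 ± 9.38 after 48h, a rise of 3.36 and 5.34 on the log2 scale of TPM (adjusted p = 7.87e-05 and 2.33e-07). Ier3 was at 0.10 TPM or less at 0h and at 2.11 ± 0.293 by 1h. Zc3h12a, the RNase Regnase-1, rose at 1h on TPM (1.12, adjusted p = 0.044), with a scaled value of 0.52 that did not pass.

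Genes of the list that went the other way on both scales were Bcl2l1 (Bcl-xL), which fell from 9.55 ± 1.30 to 4.61 ± 0.348 TPM at 1h (SD, n = 3; -1.03 on TPM, -1.68 scaled), and Sod2, a mitochondrial superoxide dismutase, which fell from 7.92 ± 1.37 to 3.30 ± 0.511 TPM at 48h (-1.24 on TPM, -0.84 scaled). Icam1, an adhesion molecule, was lower at 1h on the scaled values alone (-1.11, adjusted p = 0.00823), as was the kinase gene Pim1 at 1h (-0.91, adjusted p = 0.0037) and 12h (-0.72, adjusted p = 0.00457). These 2 were chosen after their values were seen, and both rose later. Icam1 was above 0h at 12h (1.31 on TPM, 0.99 scaled) and 48h (1.86 and 2.27), and Pim1 at 48h (1.63 and 2.04). Bcl2l1 had a mean of 13.5 ± 2.25 TPM (SD, n = 3) at 12h, and its difference from 0h then did not pass on either scale. Many of these targets are macrophage genes, and the summed macrophage markers given above rose over the same libraries. Their part in these counts was not tested.

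**Figure D4:**
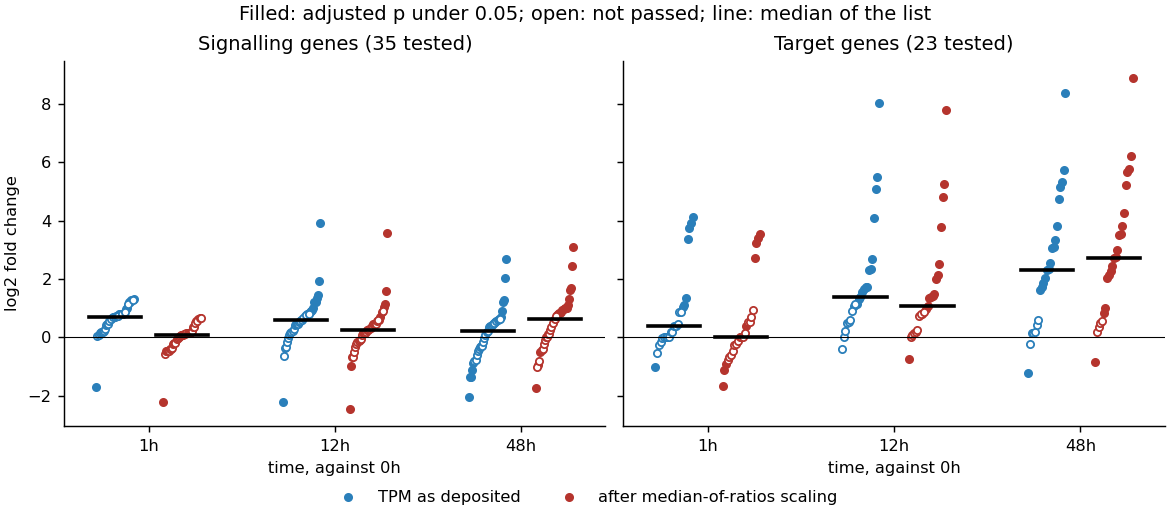
Log2 fold change against 0h of 35 signalling genes (left) and 23 target genes (right) at 1h, 12h and 48h, on TPM as deposited (blue) and after median-of-ratios scaling (red), each point 1 gene in order of value; filled points have an adjusted p under 0.05 and black lines are the list medians. The scaled median of the targets goes from 0.00 at 1h to 2.72 at 48h, that of the signalling genes from 0.08 to 0.63. The target median at 48h is the value of Mmp9, which was at 0 in every 0h library.

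Promoter contacts were read from Promoter Capture Hi-C, in which fragments that hold promoters are captured and their ligation partners counted. Each time point is 1 merged list, so no difference between times could be tested from these lists. The sequencing depths that the study lists were not used here. The study itself reports differential interactions against 0h from the Chicdiff package, and these were not used here either. Protein-coding genes with a bait had a mean of 9.62 to 10.3 contacts at each time. In order of time the lists held 277, 257, 241 and 260 contacts of the 10 members, and the median of those protein-coding genes was 5 at each time. Of the 277 contacts at 0h, 63.2% (exact binomial 95% interval 57.2% to 68.9%, counting error only) were in the 1h list too, as were 61.0% in that of 12h and 57.4% in that of 48h. The interval takes contacts as independent, whereas many are neighbouring fragments of the same bait, so it is too narrow. For all interactions the shares were 57.6%, 53.2% and 55.9%. The totals moved little while single members moved in opposite directions.

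Relb lost most of its listed contacts, from 60 at 0h to 41 at 1h, 34 at 12h and 12 at 48h, while its TPM at 48h overlapped that of 0h. Of its 0h contacts, 9 were still listed at 48h. Among 5616 genes with at least 10 contacts at 0h, 3.19% had a ratio of 48h to 0h as low as that of Relb (0.200), and the median ratio was 0.833. Nfkb2 went from 22 to 13, 12 and 9, so its contacts were fewer at 12h, when its TPM was highest. A ratio as low as its 0.409 was seen in 13.2% of the 5616 genes. Its bait also holds the start of Psd.

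Tnfaip3 gained contacts, with 15, 15, 28 and 37 in order of time. Of those at 48h, 24 were not listed at 0h, and no partner at that time held a baited promoter. A ratio as high as its 2.47 was seen in 1.60% of the 5616 genes. Its bait (chromosome 10, 19012423 to 19015728) contains the upstream promoter window printed above. Rel went from 33, 26 and 33 to 55 at 48h, of which 29 were not listed at 0h, and 7.62% of the genes had a ratio as high as its 1.67. Nfkbiz went from 23 at 0h to 25, 27 and 34, and 11.8% of the genes had a ratio as high as its 1.48. Bcl3, with a ratio of 0.638 over all its baits, had 31.6% of the genes as low, and Nfkbia, with 0.969, had 62.0% as low.

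Nfkbia had 64, 71, 51 and 62 contacts, and 42 of its 87 fragment pairs were listed at all 4 times, with partners that hold the promoters of Psma6, Ppp2r3c and 1110008L16Rik. Rela, Nfkb1 and Nfkbie had 10 or fewer contacts at each time. All 4 lists contained contacts of Rela with Ctsw, Fibp, Ehbp1l1 and Tigd3, of Rel with Papolg, Pex13 and Pus10, of Relb with Ckm, Ercc2, Klc3, Mark4 and Tomm40, of Nfkb2 with Nolc1 and of Nfkb1 with Bdh2. Bcl3, at or near 0 TPM in every library, still had 47, 50, 44 and 30 contacts from its 3 baits, with Ceacam16, Ceacam19, Gm19345 and Tomm40 as partners at all 4 times. Only 1 of these baits (19819433 to 19831449) holds the gene's own start site, and every other member has 1 bait. With that bait alone for Bcl3, the totals of the members were 237, 215, 202 and 238. Most listed Bcl3 contacts, and their fall to 48h, thus came from its other baits. Relb and Bcl3 lie on chromosome 7, and the Relb bait was listed with 1 Bcl3 bait, 186.7 kb away, at 1h alone and with another, 196.2 kb away, at 48h alone.

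**Figure D5:**
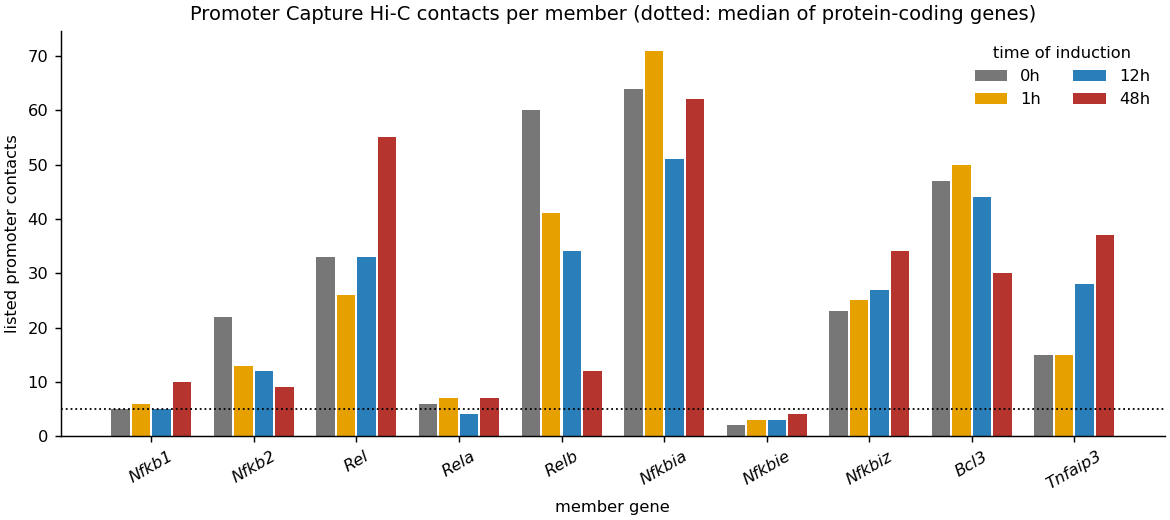
Number of listed Promoter Capture Hi-C contacts of each member at 0h, 1h, 12h and 48h (bars, 1 merged list per time point, no replicates), with the median of 5 for protein-coding genes (dotted). Relb declines from 60 to 12 and Tnfaip3 goes from 15 to 37, while Nfkbia stays between 51 and 71.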

How the data were processed

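The values analysed are those of 12 RNA-seq libraries and of Promoter Capture Hi-C lists at 4 time points. The authors merged technical replicates, trimmed reads with Trim Galore 0.6.2, mapped them with HISAT2 2.1.0 to mm10 and deposited TPM made with RSEM, in which the space taken by abundant genes changes all other values. Gene positions are GENCODE M21 (GRCm38). The authors pooled 2 capture replicates per time point and listed interactions with a CHiCAGO score of at least 5. The deposited 0h list holds scores. The deposited lists of later times hold whole numbers, read as counts of read pairs, which no result uses.

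The 16415 genes averaging 0.1 TPM or more entered limma 3.58.1 (R 4.3.3) on log2(TPM + 0.1), a scale that understates changes of low genes, in 1 model of 4 time points (eBayes with trend, two-sided, Benjamini-Hochberg over all genes). In all, 5 comparisons were made, each also on TPM divided by median-of-ratios size factors (means of 0.930, 1.47, 1.18 and 0.699 in order of time). In simulated data for 48h against 0h (16415 genes, 200 changed) the test recovered 28% of changes of log2 1 and 89% of log2 2, and called 10 unchanged genes. The simulation changed no low genes and had no shift of library scale. In the data far more genes were called (2611 higher and 4466 lower at 48h on TPM), which moves the adjusted threshold. Its shares therefore do not carry over to the data. The p-values measure the spread between labelled biological replicates. Alternatives varied the pseudocount, filter, scaling, trend, libraries and replicate block.

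Named genes are the members, the 3 largest increases and decreases against 0h per list among calls averaging 1 TPM or more, the 5 genes with the highest r to the member with the largest change at 1h and to that at 48h, and promoters in contact at all 4 times. Members and lists were chosen with earlier results of these data known. Hi-C was not used here. The values of 1 listed gene are not reported here. Other steps used Python 3.11.15.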

Additional observations from a re-analysis of the deposited data

How the results depend on the processing

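After median-of-ratios scaling the number of members called at 1h against 0h was 1 in place of 5, and with the replicate block as well it was 2, Rel having passed too (limma, adjusted p = 0.0323), the 1 call that the block changed on the scaled values. The direction reversed for 10 of 45 differences under that scaling, with or without the block, and 1 of these had been called (Nfkb1, 48h against 12h). The scaled log2 values were -0.28 for Nfkb1, -0.13 for Nfkb2, -0.046 for Relb and -0.43 for Nfkbie at 1h against 0h, -0.023 for Rel at 12h against 0h, 0.32 for Rela and 0.14 for Relb at 12h against 1h, and 0.012 for Nfkb1, 0.40 for Rela and 0.37 for Relb at 48h against 12h. The cause was not tested beyond the shift of the median of all genes. Requiring a log2 fold change beyond 1 as well left 3 members at 1h, 3 at 48h and 2 at 12h against 1h. With only the 6 libraries compared, 2 members were called at 48h against 12h. Both pseudocounts, both filters and the fit without a trend kept each count within 1.5 times.

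Replicate numbers did not meet the rule that every same-numbered pair be over 0.1, which 1 low pair is enough to fail. The correlation of deviations was over 0.1 in 7 of 18 same-numbered pairs (lowest -0.01, median 0.080, highest 0.26). Among pairs of unlike number it was over 0.1 in 1 of 36 (median -0.063), so deviations were partly shared by number. Of the 7 same-numbered pairs, 5 were among the 6 pairs of replicate 3 (median 0.209). The column labels number the replicate 3 libraries after all others. The replicate block on TPM kept all 45 directions and sides of the threshold, with 5 members called at 1h against 0h.

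Leaving out libraries, 1 at a time or, as an alternative added after seeing the data, 1 replicate number at every time point, gave between 1 and 5 calls at 1h, 3 and 5 at 12h and 3 and 6 at 48h against 0h, between 0 and 4 at 12h against 1h, and between 1 and 5 at 48h against 12h. The counts of 0 in limma came from leaving out replicate 1 or replicate 2 throughout, where 5 and 3 members had an unadjusted p under 0.05. Of single libraries, 1h replicates 1 and 2 moved the count at 12h against 1h to 1 and 2, and 48h replicate 1 that at 48h against 12h to 2. With scaling, also added later, single libraries gave 0 to 2 calls at 1h (where limma gave 0, 2 or 3 members had an unadjusted p under 0.05), 4 to 5 at 12h and 6 to 8 at 48h against 0h, 3 to 4 at 12h against 1h and 3 to 5 at 48h against 12h. Reversals on leaving out libraries concerned differences not called. On TPM they spanned 0 for Nfkbie (from -0.15 to 0.26) at 1h against 0h, Nfkb1 (from -0.39 to 0.17) at 12h against 0h, Nfkb2 (from -0.19 to 0.33) and Relb (from -0.31 to 0.54) at 48h against 0h, Rela (from -0.063 to 0.041) and Relb (from -0.36 to 0.099) at 12h against 1h, and Relb (from -0.54 to 0.0054) and Nfkbiz (from -0.29 to 0.44) at 48h against 12h. On the scaled values they spanned 0 for Rela (from -0.064 to 0.13), Relb (from -0.28 to 0.10) and Nfkbia (from -0.12 to 0.20) at 1h against 0h, Rel (from -0.11 to 0.12) and Relb (from -0.13 to 0.28) at 12h against 0h, Relb (from -0.053 to 0.34) at 12h against 1h, and Nfkb1 (from -0.076 to 0.11) at 48h against 12h.

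At a score of at least 10 the 0h list held 78 contacts of the members. When a partner within 10 kb counted as the same, 88.1%, 84.5% and 71.5% of the 0h contacts were found at 1h, 12h and 48h. The share of all interactions under this rule was not computed, so these values have no baseline. Counting baits with the start of the gene's own main transcript alone kept the totals within 1.5 times, and only the contacts of Bcl3 changed.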
